A study of Homo sapiens with 8 samples.

Results

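The TRiC chaperonin was followed at the transcript level through its 8 subunit genes, TCP1, CCT2, CCT3, CCT4, CCT5, CCT6A, CCT7 and CCT8, which were taken by name from the 19305 genes listed in each library. Each subunit had 1 counted transcript, and all 8 were among the 14565 genes that passed the filter on low counts. Polyadenylated RNA had been sequenced in 8 libraries, 2 in each of 4 groups. HEK293T cells, a line of embryonic kidney origin, received an siRNA against eIF2A or a control siRNA, and both of these groups were treated with sodium arsenite, an oxidative stressor. H9 human embryonic stem cells expressed an shRNA against eIF2A or a control shRNA, and no arsenite is named for them. eIF2A is an initiation factor that can deliver initiator tRNA to the ribosome. Replicates are numbered as sets, with no word on whether they were separate cultures; p-values therefore reflect the spread between libraries alone, and that spread may be technical. Dose and time of arsenite, and whether each line is 1 clone, are not given.

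TRiC, also called CCT, is a chaperonin of the cytosol made of a pair of stacked rings, and each ring holds one copy of each of the 8 related subunits. Unfolded proteins bind inside the chamber and are released after the lid closes in a cycle driven by ATP. Actin and tubulin are its best known clients, and they reach it largely through prefoldin, while phosducin-like proteins act as cofactors. Because a ring needs every subunit in equal number, the balance of the transcripts and whether they change together were the questions asked here.

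Of the 8 subunits, 6 had a usable upstream region in RefSeq's promoter table (GRCh38.p14). The 250 bases before the start are shown for CCT2 (chr12:69585209-69585458, plus strand), CCT8 (chr21:29073649-29073898, minus strand) and CCT7 (chr2:73234058-73234307, plus strand). CCT2 and CCT8 are shown because they had the largest rises among the subunits in H9 cells with eIF2A shRNA, and CCT7 because it had the largest fall. Capitals mark the CCAAT box, which reads ATTGG where it lies on the strand opposite to the one printed. They also mark CCGGAA, a form of the site for ETS factors, which reads TTCCGG where it lies on the strand opposite to the one printed.
CCT2: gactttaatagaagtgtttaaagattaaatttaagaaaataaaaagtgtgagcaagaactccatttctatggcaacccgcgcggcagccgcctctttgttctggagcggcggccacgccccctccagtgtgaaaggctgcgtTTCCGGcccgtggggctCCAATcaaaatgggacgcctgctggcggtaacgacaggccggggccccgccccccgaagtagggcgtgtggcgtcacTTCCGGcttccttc
CCT8: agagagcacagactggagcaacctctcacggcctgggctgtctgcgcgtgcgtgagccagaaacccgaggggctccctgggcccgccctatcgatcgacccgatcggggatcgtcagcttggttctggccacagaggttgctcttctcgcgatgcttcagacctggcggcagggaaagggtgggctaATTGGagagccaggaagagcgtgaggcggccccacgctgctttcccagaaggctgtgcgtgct
CCT7: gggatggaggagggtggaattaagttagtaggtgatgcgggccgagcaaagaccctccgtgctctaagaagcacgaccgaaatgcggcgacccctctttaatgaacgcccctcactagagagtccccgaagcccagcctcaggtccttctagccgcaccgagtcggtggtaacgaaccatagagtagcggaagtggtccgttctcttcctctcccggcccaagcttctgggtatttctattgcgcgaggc

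CCAAT was found on either strand in 4 of the 6 windows (TCP1, CCT2, CCT3 and CCT8), against 32.0% of all 35116 windows of that length. The ETS site in the form CCGGAA (either strand) was found in CCT2 alone among the 6, in 2 copies, against 14.5% of all windows. Other forms of the ETS site were not searched. A GC box, GGGCGG, lay in 4 windows, those of the same genes as CCAAT, against 42.6% of all windows. A heat shock element written GAANNTTC lay in the TCP1 window only (5.78% of all windows), and TTCNNGAA (6.62%) and TATAAA (10.7%) lay in none of the 6. The motifs were picked with the sequences in view, and a match is a description of letters, not of binding. The windows of CCT4 and CCT7 held none of the motifs searched.

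Libraries held 21837052 to 32318668 gene counts, and the subunits had from 1435 counts (CCT8) to 58612 counts (CCT3) in a library. EIF2A stood at 5.575 and 5.978 CPM (counts relative to the library's total, scaled with TMM) with siRNA, against 17.47 and 18.32 CPM in the HEK293T controls. In H9 it stood at 5.025 and 4.665 CPM with shRNA, against 15.81 and 14.76 CPM in the controls. The 2 HEK293T controls differed from each other more than the replicates of other groups, with a chi-square per degree of freedom of 4.91 against 1.35 to 1.8. Pluripotency markers summed to 5090 to 5470 CPM in the H9 libraries and to 130 to 145 CPM in the HEK293T libraries, where NANOG, DPPA4 and L1TD1 were at 0. Nearly all of the HEK293T sum was DNMT3B (129 to 145 CPM), and POU5F1 and LIN28A were at or near 0 there.

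CCT3 and CCT7 transcripts far outnumbered those of the other subunits in every library. To compare genes, levels were divided by the length of the counted transcript (CPM per kb). In HEK293T, CCT3 averaged 889 ± 2.7 CPM per kb with eIF2A siRNA and 861 ± 6.2 CPM per kb with control siRNA (SD, n = 2 each, as for all means here). CCT7 averaged 741 ± 7.6 and 757 ± 38 CPM per kb in the same groups. In H9, CCT3 averaged 371 ± 0.83 CPM per kb with eIF2A shRNA and 432 ± 5.5 CPM per kb with control shRNA, and CCT7 averaged 323 ± 2.0 and 421 ± 0.43 CPM per kb. No other subunit passed 156 CPM per kb in any library.

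**Figure D1:**
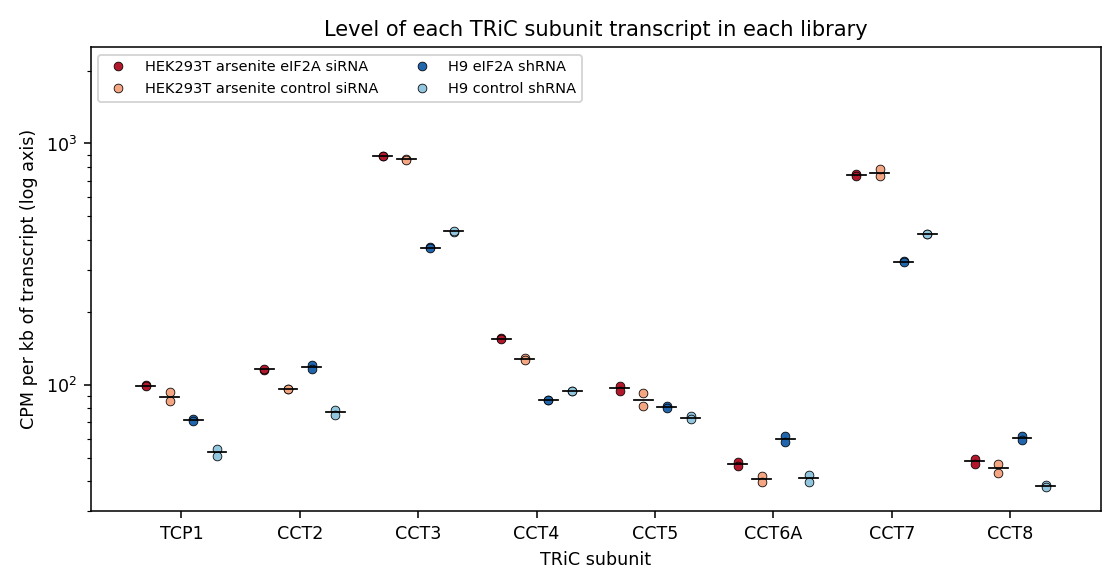
Level of each TRiC subunit in each library, in CPM per kb of transcript on a log axis, with the subunits along the x axis and the 4 groups in colour; short lines are group means. CCT3 and CCT7 lie above the other 6 subunits in all 8 libraries.

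The other 6 subunits lay closer together. In HEK293T with eIF2A siRNA, CCT4 averaged 155 ± 1.1 CPM per kb, CCT2 116 ± 1.3, TCP1 99.3 ± 0.57, CCT5 96.8 ± 3.1, CCT8 48.4 ± 1.6 and CCT6A 47.0 ± 1.1 CPM per kb. In the HEK293T controls the same order held, with CCT4 at 128 ± 1.8, CCT2 at 96.0 ± 0.084, TCP1 at 89.5 ± 5.7, CCT5 at 87.1 ± 7.5, CCT8 at 45.3 ± 2.7 and CCT6A at 40.8 ± 1.6 CPM per kb. The values of TCP1 and CCT5 overlapped between libraries in both groups, and those of CCT8 and CCT6A overlapped with eIF2A siRNA. Within each of the 4 libraries, however, TCP1 lay above CCT5 and CCT8 above CCT6A. Both orders depend on transcript length, which is 3675 bases for CCT5, 2499 for TCP1, 2719 for CCT6A and 1862 for CCT8. As CPM without division by length, CCT5 lay above TCP1 and CCT6A above CCT8 in all 8 libraries.

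In H9 with eIF2A shRNA, CCT2 came next after CCT3 and CCT7 at 118 ± 3.5 CPM per kb, followed by CCT4 at 86.6 ± 0.0031, CCT5 at 81.3 ± 1.1, TCP1 at 71.7 ± 0.85, CCT8 at 60.5 ± 1.8 and CCT6A at 59.7 ± 2.3 CPM per kb. In the H9 controls CCT4 came next after them at 94.3 ± 0.25 CPM per kb, followed by CCT2 at 77.2 ± 2.5, CCT5 at 73.2 ± 1.5, TCP1 at 52.7 ± 2.4, CCT6A at 41.0 ± 2.1 and CCT8 at 38.3 ± 0.36 CPM per kb. CCT2 and CCT4 thus stood in opposite order in the knockdown and control libraries of H9. CCT8 and CCT6A overlapped in the knockdown libraries, with CCT8 the higher within each, and CCT6A lay above CCT8 in both controls. As CPM without division by length, CCT5 came next after CCT3 and CCT7 in all H9 libraries, and CCT6A lay above CCT8 in each.

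The imbalance was larger in HEK293T than in H9. The highest subunit exceeded the lowest 18.6- and 19.3-fold in the HEK293T libraries with eIF2A siRNA, against 20.6- and 21.6-fold in their controls. In H9 the ratio was 6.05 and 6.37 with eIF2A shRNA, against 11.1 and 11.5 in the controls. The 2 groups of each line did not overlap, and the gap between them was wider in H9.

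CCT3 and CCT7 together made up 74.2 and 74.4% of the summed subunit level in HEK293T with eIF2A siRNA, against 77.0 and 76.8% in the controls. In H9 their share was 59.0 and 59.5% with eIF2A shRNA, against 68.9 and 69.8% in the controls. Such shares within a library do not depend on how libraries are scaled. The subunits that gained most of the H9 share were CCT2, with 10.1 ± 0.19% against 6.27 ± 0.18%, CCT8, with 5.17 ± 0.10% against 3.11 ± 0.020%, and TCP1, with 6.12 ± 0.0073% against 4.29 ± 0.18%. Among the 6 subunits without CCT3 and CCT7, the highest exceeded the lowest 1.96- and 1.99-fold in H9 with eIF2A shRNA, against 2.45- and 2.47-fold in the controls, and 3.27- and 3.34-fold in HEK293T with eIF2A siRNA, against 3.08- and 3.19-fold in the controls.

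**Figure D2:**
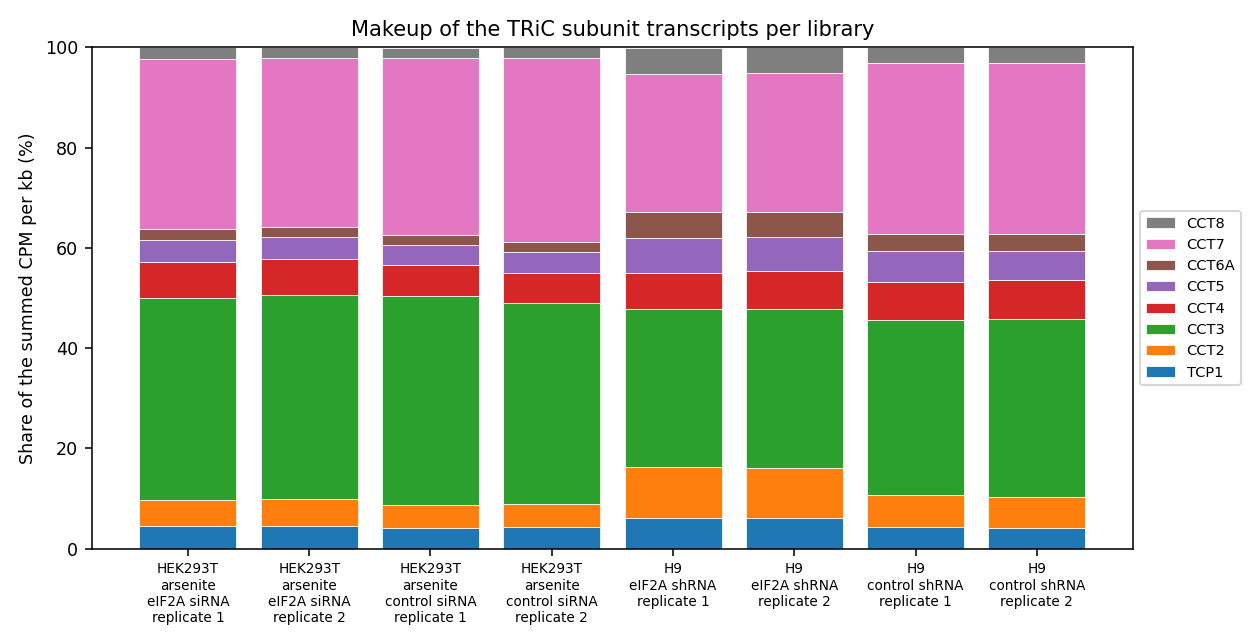
Share of the summed TRiC subunit level (CPM per kb, in percent) that each subunit held in each library, as stacked bars that start at 0 and end at 100%. CCT3 and CCT7 hold 59.0 to 59.5% in the H9 eIF2A shRNA libraries and 74.2 to 77.0% in the HEK293T libraries.

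The order of the levels followed the GC content of the counted transcripts. CCT7 and CCT3 had the highest GC content of the 8, 51.3 and 51.2%, CCT2 had 45.9% and CCT8 had the lowest, 41.1%. The Spearman correlation of level per length with GC content over the 8 subunits was 0.83 to 0.93 in the 4 groups. Over 14489 genes with a known GC content it was 0.24 to 0.35, and genes of 1 library share its depth and preparation. How much of the order is due to base composition was not tested. Pseudogenes are named in the annotation for 7 of the subunits, with 5 for CCT6A and none for CCT2. Reads that aligned to more than 1 place were set aside in the counts, so a subunit with near-identical copies may be counted low.

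Knockdown of eIF2A in arsenite-treated HEK293T cells was accompanied by small rises of several subunits and by the fall of none. CCT2, CCT4, CCT6A, TCP1 and CCT5 rose, 5 of the 8, where 14.1% of all genes tested were called higher, 14.7% lower and 28.7% in either direction (adjusted p under 0.05). The median log2 fold change of the 8 subunits was 0.15, against -0.0032 over all genes, and the values spanned only 0.31 from lowest to highest. Reads assigned to no feature were at 14.98 and 14.95% with eIF2A siRNA, against 15.59 and 17.68% in the controls. Mesoderm markers summed to 29.1 to 29.8 CPM, against 39.0 CPM or more in both controls, nearly all of it HAND1 (29.2 and 28.9 CPM, against 38.2 and 39.2 CPM), with 2 of 3 tested called lower and TBXT below 1 CPM. The part of these differences in the subunit changes was not tested.

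CCT2, mutated in a form of Leber congenital amaurosis, stood at 252.5 and 256.6 CPM with eIF2A siRNA, against 210.0 and 210.3 CPM in the controls. CCT4, mutated in a rat sensory neuropathy, stood at 393.4 and 389.5 CPM, against 325.5 and 319.2 CPM. For both, the groups lay well apart and the replicates close together. The log2 fold change was 0.28 ± 0.034 (SE) for CCT2 and 0.28 ± 0.031 for CCT4, about 1.21-fold each (edgeR's quasi-likelihood test; p adjusted over all genes = 8.2e-08 and 1.1e-08). CCT6A, which has a testis paralog in CCT6B, stood at 130.0 and 125.7 CPM, against 114.2 and 107.9 CPM, and rose by 0.21 ± 0.042 on the log2 scale (edgeR adjusted p = 2.0e-04).

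TCP1, the subunit for which the complex is named, stood at 249.1 and 247.1 CPM with eIF2A siRNA, against 213.6 and 233.8 CPM in the controls. CCT5, mutated in a hereditary sensory neuropathy, stood at 363.7 and 347.8 CPM, against 300.5 and 339.7 CPM. The controls of both genes differed from each other by more than the gap to the nearest knockdown library. Both rose by 0.15 on the log2 scale (SE 0.037 for TCP1 and 0.041 for CCT5; edgeR adjusted p = 0.0026 and 0.0072). The call of CCT5 was lost without control replicate 1 (0.07) or siRNA replicate 1 (0.12), and TCP1 had 0.22 without control replicate 2 and 0.09 without control replicate 1.

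The 2 most abundant subunits did not pass the test. CCT3 stood at 1907 and 1915 CPM, against 1861 and 1842 CPM, with a log2 fold change of 0.05 ± 0.028 (edgeR adjusted p = 0.24). CCT7 stood at 1516 and 1494 CPM, against 1483 and 1592 CPM, and its groups overlapped (-0.03 ± 0.031, edgeR adjusted p = 0.5). CCT8, whose level is linked to TRiC assembly in human pluripotent stem cells, stood at 92.26 and 87.95 CPM, against 80.76 and 87.89 CPM, so that 1 control nearly met the lower knockdown library (0.09 ± 0.044, edgeR adjusted p = 0.13). The calls of both depended on the controls: CCT7 was called lower without control replicate 1 (-0.08, edgeR adjusted p = 0.017) and CCT8 higher without control replicate 2 (0.16, edgeR adjusted p = 0.0086).

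In H9, the subunits differed in both directions between eIF2A shRNA and control shRNA. TCP1, CCT2, CCT5, CCT6A and CCT8 rose and CCT3, CCT4 and CCT7 fell. All 8 were called, in a comparison that called 71.3% of all genes, 37.0% higher and 34.3% lower. The subunits had a median log2 fold change of 0.30, against 0.024 over all genes, and spanned 1.04, with an SD over subunits of 0.41 against 0.11 in HEK293T. The 2 groups did not overlap for any subunit, and the share of all genes without overlap is not given here.

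CCT8 rose most, to 115.1 and 110.3 CPM with eIF2A shRNA, against 71.8 and 70.84 CPM in the controls. CCT2 stood at 263.8 and 252.9 CPM, against 172.7 and 165.1 CPM. CCT6A stood at 166.9 and 158.0 CPM, against 115.7 and 107.5 CPM. In each of these the knockdown libraries exceeded the controls by far more than replicates differed. The log2 fold changes were 0.66 ± 0.046 for CCT8, 0.61 ± 0.035 for CCT2 and 0.54 ± 0.042 for CCT6A, or 1.58-, 1.53- and 1.46-fold (edgeR adjusted p = 1.0e-14, 6.1e-17 and 1.5e-13).

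TCP1 stood at 180.6 and 177.6 CPM with eIF2A shRNA, against 136.0 and 127.6 CPM in the controls, and rose by 0.44 ± 0.041 on the log2 scale (edgeR adjusted p = 8.7e-12). CCT5 stood at 301.3 and 295.9 CPM, against 272.8 and 265.2 CPM, a rise of 0.15 ± 0.043 (edgeR adjusted p = 0.0029) that became -0.01 with DESeq2's size factors. That scaling moved the median of all genes to -0.13 in this comparison, and the median of the subunits to 0.14.

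The most abundant subunits fell. CCT7 stood at 659.6 and 653.9 CPM with eIF2A shRNA, against 855.5 and 854.3 CPM in the controls, with a log2 fold change of -0.38 ± 0.032, and CCT3 stood at 797.9 and 795.3 CPM, against 921.5 and 938.1 CPM, with -0.22 ± 0.029 (edgeR adjusted p = 7.0e-13 and 1.6e-08). CCT4 stood at 218.2 CPM in both knockdown libraries, against 238.2 and 237.3 CPM (-0.12 ± 0.033, edgeR adjusted p = 0.0011), and was not called with upper-quartile scaling (-0.05, edgeR adjusted p = 0.16). CCT8, which rose most, was the least abundant subunit per length in the H9 controls, and CCT7 and CCT3 were the most abundant.

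**Figure D3:**
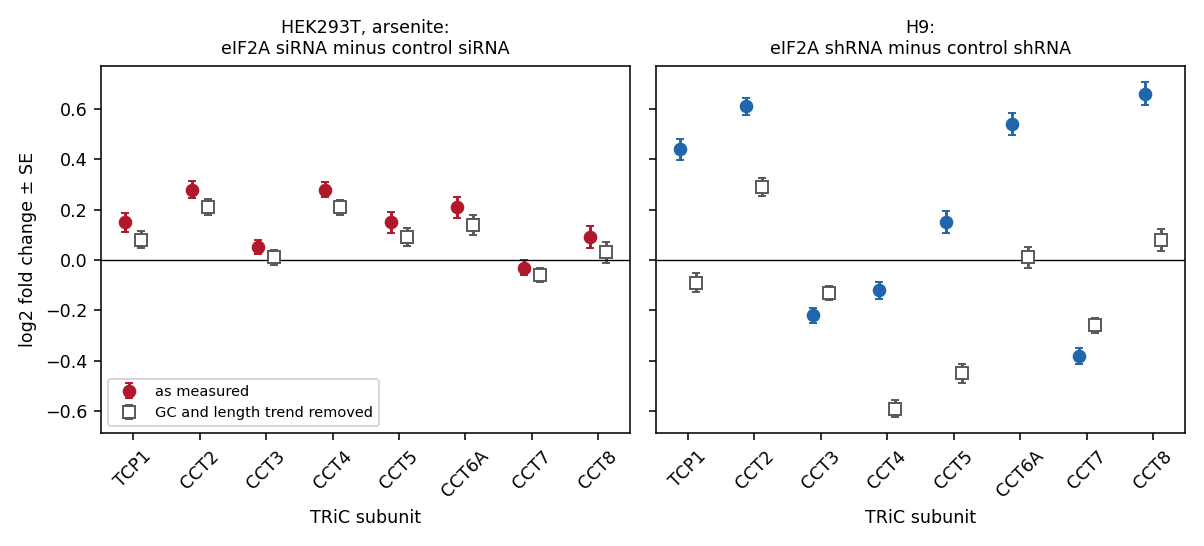
Log2 fold change of each TRiC subunit with its SE (x axis subunits, y axis log2 of eIF2A knockdown over control), for both lines, as measured (filled) and after removal of the GC and length trend (open squares). The HEK293T values lie between -0.03 and 0.28, and the H9 values as measured between -0.38 and 0.66.

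In H9, changes across the whole transcriptome followed base composition, and the subunits of low GC content had higher log2 fold changes than CCT3 and CCT7. The log2 fold change had a Spearman correlation of -0.68 with GC content over 14489 genes and of -0.74 over the 8 subunits. The median log2 fold change of all genes was 0.75 between 40 and 45% GC, where CCT4, CCT5, CCT6A, TCP1 and CCT8 lie, 0.30 between 45 and 50%, where CCT2 lies, and -0.13 between 50 and 55%, where CCT3 and CCT7 lie. All 5 subunits between 40 and 45% GC thus rose less than that median or fell, and CCT2 rose more than the median of its range. In narrower ranges of GC content, CCT4 (-0.12) and CCT7 (-0.38) lay below the middle 50% of genes. Its lower bound was 0.108 in the range centred on 45% and -0.31 in that centred on 51%. The other subunits lay within the middle 50%. In the range centred on 45%, CCT2 (0.61) was close to the median of 0.554. In HEK293T the correlation was -0.099 over all genes and -0.21 over the subunits. Reads assigned to no feature also followed the H9 groups, with 20.84 and 20.63% with eIF2A shRNA against 18.84 and 18.39% in the controls. Of 4 mesoderm markers, KDR alone rose, and the list summed to 66.0 to 70.1 CPM with eIF2A shRNA against 30.9 to 31.2 CPM in the controls, with HAND1 at 0 and TBXT below 1 CPM. Of 7 fibroblast markers 4 were tested, and 2 rose and 1 fell. The list summed to 843 to 856 CPM, against 974 to 980 CPM, with LUM and DCN at or near 0. Most of that sum was THY1 (592 and 594 CPM, against 788 and 794 CPM). COL1A1 (118 and 124 CPM, against 88.7 and 87.7 CPM) and COL1A2 (132 and 138 CPM, against 96.1 and 97.8 CPM) lay higher instead. Trophoblast markers summed to 16.1 to 16.8 CPM, against 25.6 to 26.2 CPM, nearly all of it KRT7, with 1 of 2 tested called lower and CGA and CGB5 at or near 0. Pluripotency markers summed to 5090 and 5180 CPM, against 5450 and 5470 CPM, with 2 of 6 tested called higher and 3 lower. For these marker counts, 37.0% of all genes were called higher and 34.3% lower. With the GC and length trend removed, 1 pluripotency marker was called higher and 5 lower, where 22.2% of all genes were called higher and 27.4% lower. The trophoblast call was then lost, and the fibroblast counts stayed the same. The part of these differences between the groups in the subunit changes was not tested.

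**Figure D4:**
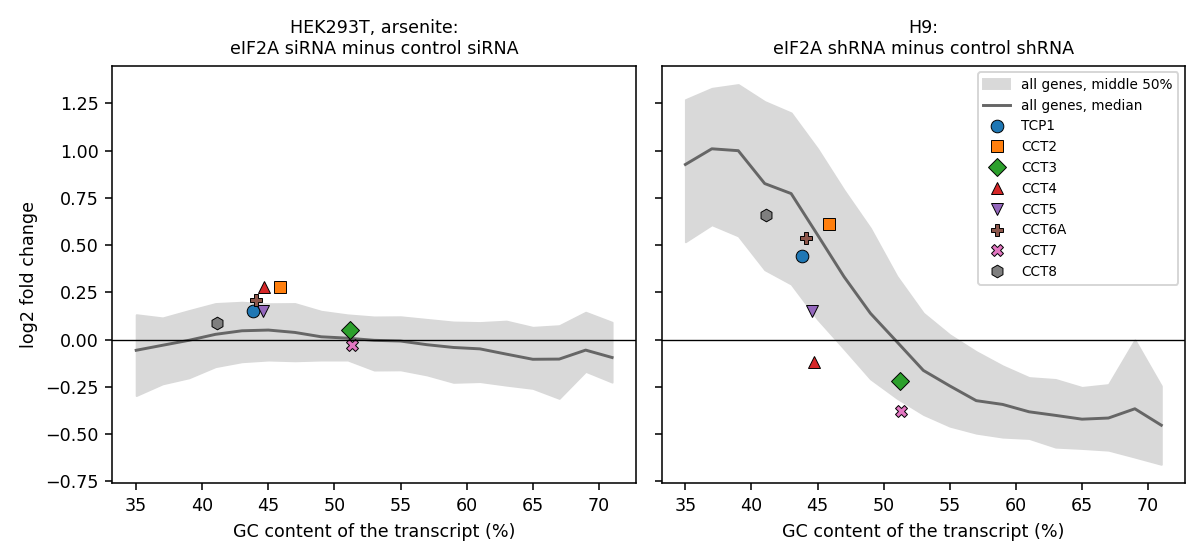
Log2 fold change of each TRiC subunit (points) against the GC content of its transcript in percent, for each knockdown, with the median (line) and middle 50% (band) of all genes. In H9 the median of all genes descends with GC content, and CCT3 and CCT7 lie at the high GC end.

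The comparison was repeated with each library's trend in GC content and transcript length removed, as estimated over all genes. The trend was that of a library's departure from each gene's mean over the 8 libraries. In H9, CCT2 then rose (0.29, edgeR adjusted p = 3.4e-09) and TCP1, CCT3, CCT4, CCT5 and CCT7 fell, while CCT6A (0.01) and CCT8 (0.08) were not called. That was 1 higher and 5 lower of 8, where 49.6% of all genes were called, 22.2% higher and 27.4% lower. The largest falls in this fit were those of CCT4 (-0.59 ± 0.032) and CCT5 (-0.45 ± 0.038), which had the least change as measured. CCT7 had -0.26 ± 0.030, CCT3 -0.13 ± 0.028 and TCP1 -0.09 ± 0.037 (edgeR adjusted p = 0.047). The direction of CCT2, CCT3, CCT4 and CCT7 was the same in both fits, that of TCP1 and CCT5 was opposite, and the values still spanned 0.88.

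In HEK293T the same step left CCT2 (0.21), CCT4 (0.21) and CCT6A (0.14) called higher and no subunit lower, where 27.6% of all genes were called, 14.6% higher and 13.0% lower. TCP1 (0.08, edgeR adjusted p = 0.091) and CCT5 (0.09, edgeR adjusted p = 0.063) were no longer called. The median of the subunits was 0.08, and the values spanned 0.28.

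With the trend removed, the balance in H9 differed much less between the groups. The SD of the log2 levels over the subunits was 1.22 and 1.24 with eIF2A shRNA, against 1.27 and 1.29 in the controls, where the levels as measured gave 1.04 and 1.06 against 1.37 and 1.41. CCT3 and CCT7 held 65.0 and 65.6% of the summed level, against 65.9 and 66.4%. In HEK293T they held 73.4 and 73.5% with eIF2A siRNA, against 75.7 and 75.5%. This step leaves in place any dependence of level on GC content or length that all libraries share. The high share of CCT3 and CCT7 that remains is therefore not corrected for base composition.

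The difference between the knockdown effects was tested directly as the H9 log2 fold change minus that in HEK293T. Of the 8 subunits, 4 had a higher value in H9 and 3 a lower one, where 31.1% of all genes tested were called higher and 27.0% lower (58.1% in all). CCT8 (0.57 ± 0.064), CCT2 (0.34 ± 0.049), CCT6A (0.34 ± 0.059) and TCP1 (0.30 ± 0.055) were higher, and CCT4 (-0.40 ± 0.045), CCT7 (-0.35 ± 0.044) and CCT3 (-0.27 ± 0.040) were lower (edgeR adjusted p from 1.7e-09 to 2.1e-05). For CCT5 the difference was 0.00 ± 0.059. With the trend removed none was higher and 5 were lower, namely CCT4 (-0.80), CCT5 (-0.54), CCT7 (-0.20), TCP1 (-0.17) and CCT3 (-0.14), where 18.6% of all genes were called higher and 23.8% lower (42.4% in all). CCT4 was thus the subunit with the lowest difference in both fits: it rose in HEK293T and fell in H9.

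The lines themselves differed in the level of most subunits. Comparing H9 with control shRNA against HEK293T with control siRNA and arsenite, 7 subunits were lower in H9 and none higher, where 41.2% of all genes were called lower and 42.3% higher (83.5% in all). CCT3 stood at 921.5 and 938.1 CPM in H9, against 1861 and 1842 CPM in HEK293T, and CCT7 at 855.5 and 854.3 CPM, against 1483 and 1592 CPM. These were the widest gaps, with log2 differences of -0.99 ± 0.029 and -0.85 ± 0.031, followed by TCP1 with -0.77 ± 0.040 (edgeR adjusted p = 8.3e-27, 1.9e-23 and 6.0e-19). CCT4 had -0.44, CCT2 -0.31, CCT5 -0.25 and CCT8 -0.25.

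CCT6A was the subunit not called between the lines. It stood at 115.7 and 107.5 CPM in H9 controls, against 114.2 and 107.9 CPM in HEK293T controls (0.01 ± 0.043, edgeR adjusted p = 0.83). With upper-quartile scaling, which moved the median of all genes to -0.16, CCT6A had -0.15 and all 8 subunits were called lower. With the trend removed CCT6A was called higher in H9 (0.19), CCT8 was not called (0.07) and 6 subunits were lower, where 45.3% of all genes were called lower and 39.1% higher (84.4% in all). Cell line, arsenite and the kind of interfering RNA cannot be told apart in this comparison, and in these bulk samples fewer cells with a transcript and less of it per cell cannot be told apart either.

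Prefoldin, which hands clients to TRiC, rose in part in HEK293T and fell in most of its tested genes in H9. Of the 6 genes for prefoldin, 5 were tested, and PFDN6 had at most 1 count. Reads that aligned to more than 1 place were set aside, and whether this lowered the count of PFDN6 was not tested. In HEK293T, PFDN1 (0.33 ± 0.041), PFDN2 (0.27 ± 0.045) and VBP1 (0.18 ± 0.066) rose and none fell, while PFDN4 had -0.10 and PFDN5 0.10. In H9, VBP1 rose (0.32 ± 0.075), PFDN1 (-0.26 ± 0.048), PFDN2 (-0.43 ± 0.065) and PFDN5 (-0.45 ± 0.080) fell, and PFDN4 had 0.13. After trend removal PFDN1, PFDN4 and VBP1 fell in H9 and none rose, where 27.4% of all genes were called lower and 22.2% higher. VBP1 was then not called in HEK293T (0.16, edgeR adjusted p = 0.069). The median over prefoldin was 0.18 in HEK293T, where 14.1% of all genes were called higher, and -0.26 in H9, where 34.3% were called lower.

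Of the phosducin-like cofactors and their relative TXNDC9, 3 of 4 were tested, and PDCL2 had at most 1 count. PDCL3 rose in HEK293T, with 16.11 and 15.41 CPM against 12.15 and 13.7 CPM (0.28 ± 0.087, edgeR adjusted p = 0.015). PDCL, a cofactor in the folding of G protein beta subunits, had 0.10 and TXNDC9 0.12 in HEK293T, where 14.1% of all genes were called higher. None was called in H9, where PDCL had 0.17, PDCL3 0.12 and TXNDC9 0.12, in a comparison that called 71.3% of all genes. Once the trend was removed, PDCL (-0.59) and TXNDC9 (-0.47) fell in H9, where 27.4% of all genes were called lower. PDCL3 was then not called in HEK293T (0.21, edgeR adjusted p = 0.067).

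The chaperonin-like genes include MKKS, BBS10 and BBS12, which act with TRiC in assembling the BBSome, and CCT6B. MKKS rose in HEK293T (0.22 ± 0.068) and in H9 (0.24 ± 0.069). BBS10 stood at 4.909 and 5.259 CPM in H9 with eIF2A shRNA, against 1.958 and 2.222 CPM in the controls (1.28 ± 0.18), and BBS12 at 1.314 and 1.018 CPM, against 0.6061 and 0.4937 CPM (1.08 ± 0.37). BBS10 (-0.18) and BBS12 (0.51) did not pass in HEK293T, and CCT6B, at most 1.612 CPM in any library, was not called in either line. Once the trend was removed, MKKS fell (-0.46) and BBS10 rose (0.46) in H9, and the calls of BBS12 in H9 (0.32, edgeR adjusted p = 0.51) and of MKKS in HEK293T (0.16, edgeR adjusted p = 0.065) were lost.

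The client list holds 28 genes whose proteins fold on TRiC, among them actins, tubulins and G protein beta subunits. In HEK293T, 7 rose and 7 fell (against 14.1% and 14.7% of all genes), with a median of 0.00. ACTB, the major cytoplasmic actin, rose by 0.17 ± 0.027 on the log2 scale, and the tubulins TUBA1A (-0.29 ± 0.036) and TUBG1 (-0.27 ± 0.034) and the deacetylase HDAC3 (-0.27 ± 0.033) fell. In H9, 3 rose and 22 fell, where 37.0% of all genes were called higher and 34.3% lower, with a median of -0.38, and the smallest p-values were those of TUBB3 (-1.10 ± 0.035), TUBB2B (-0.66 ± 0.032), the mitotic activator CDC20 (-0.63 ± 0.033) and TUBA1A (-0.64 ± 0.036). After trend removal 16 fell and 3 rose in H9, where 27.4% of all genes were called lower and 22.2% higher, with a median of -0.13.

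Among 7 tubulin folding cofactors, which take tubulin on from TRiC, TBCD (-0.33 ± 0.039) and TBCB (-0.12 ± 0.037) fell in HEK293T and none rose (14.7% of all genes were called lower). In H9, 5 fell and 2 rose (34.3% and 37.0% of all genes), among them TBCB (-0.63 ± 0.038), ARL2 (-0.51 ± 0.035), TBCD (-0.35 ± 0.038) and TBCEL (1.16 ± 0.15). After trend removal 3 fell and 2 rose in H9 (27.4% and 22.2% of all genes). TBCD then had -0.51 and TBCB -0.12, ARL2 was called higher (0.13) and TBCEL was not called (0.18, edgeR adjusted p = 0.34). Among 9 prefoldin-like and R2TP genes, which serve the assembly of large complexes, 2 rose and 2 fell in HEK293T (14.1% and 14.7% of all genes), and 3 rose and 6 fell in H9 (37.0% and 34.3% of all genes). PDRG1 rose in HEK293T (0.50 ± 0.049) and fell in H9 (-0.48 ± 0.056). PIH1D1 fell in both (-0.33 ± 0.041 in HEK293T and -0.48 ± 0.039 in H9), as did RUVBL2 (-0.24 ± 0.036 and -0.51 ± 0.038), and URI1 rose in both (0.20 ± 0.069 and 1.05 ± 0.075), while POLR2E fell in H9 (-0.65 ± 0.032). In H9 PIH1D1 (0.04) and RUVBL2 (-0.02) were not called with the trend removed, and neither was URI1 in HEK293T (0.14, edgeR adjusted p = 0.12).

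The mitochondrial chaperonin, which folds proteins in another compartment, changed in both directions in H9. HSPD1, its ring subunit, stood at 400.6 and 391.4 CPM with eIF2A shRNA, against 207.1 and 210.9 CPM in the controls (0.92 ± 0.034). HSPE1, its lid, stood at 178.7 and 180.7 CPM, against 255.4 and 251.7 CPM (-0.50 ± 0.036). The 2 genes still moved apart after trend removal (0.43 and -0.23). In HEK293T HSPE1 rose (0.24 ± 0.037) and HSPD1 was not called (0.06 ± 0.033).

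Of 16 cytosolic HSP70 and HSP90 chaperones, cochaperones and heat shock factors, 5 rose and 4 fell in HEK293T, and 11 rose and 5 fell in H9. Over all genes 14.1% were called higher and 14.7% lower in HEK293T, and 37.0% and 34.3% in H9, so the count that fell in H9 was close to that share. HSP90AA1 fell in HEK293T (-0.34 ± 0.037) and rose in H9 (1.24 ± 0.038), while DNAJB1 fell in HEK293T (-0.34 ± 0.031) and DNAJA2 (0.49 ± 0.045) and PTGES3 (0.26 ± 0.032) rose there. In H9 HSPH1 (1.32 ± 0.068) and HSPA4 (1.02 ± 0.045) rose and HSF1, the main heat shock transcription factor, fell (-0.61 ± 0.039). After trend removal 5 of these genes rose and 8 fell in H9, where 22.2% of all genes were called higher and 27.4% lower.

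Of the 8 subunit genes, 5 start within 1000 bases of a protein-coding gene on the other strand in GENCODE. The distance between the starts was 63 bases for TCP1 and MRPL18, 80 for CCT4 and COMMD1, 24 for CCT5 and ATPSCKMT, 26 for CCT6A and PSPH, and 182 for CCT7 and PRADC1. In HEK293T, where 28.7% of all genes were called, none of these neighbours was called, and TCP1, CCT4, CCT5 and CCT6A rose. In H9 PSPH, an enzyme of serine synthesis, stood at 54.31 and 54.24 CPM with eIF2A shRNA, against 109.4 and 106.8 CPM in the controls (-0.99 ± 0.045), while CCT6A rose. MRPL18 fell as well (-0.19 ± 0.044) while TCP1 rose, and COMMD1 (-0.40 ± 0.069) and PRADC1 (-0.71 ± 0.091) fell as CCT4 and CCT7 did. With the trend removed PRADC1 was not called (-0.13), and TCP1 (-0.09) fell along with MRPL18 (-0.11). CCT6A was then not called (0.01), while PSPH still had -0.99. ATPSCKMT was not called in H9 (0.28 ± 0.16), in a comparison that called 71.3% of all genes. How strand was treated in the counts is not stated in the sources used here, and reads near a shared start cannot be assigned with certainty.

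Like patterns were sought among the 6330 genes averaging 20 CPM or more. The 5 whose log2 CPM, centred over the 8 libraries, lay closest to the mean of the centred subunits were IMMT, KHDRBS1, NSL1, KPNA6 and OGFOD1, at a root mean square difference of 0.035 to 0.046. By the same measure the subunits lay from 0.11 (CCT5) and 0.12 (TCP1) to 0.36 (CCT7) and 0.38 (CCT3) from their mean; the 5 genes were chosen as the closest, so the 2 ranges are not comparable. IMMT, a protein of mitochondrial cristae, stood at 127 and 129 CPM in HEK293T with eIF2A siRNA, against 112 CPM in both controls, and at 94.9 and 93.9 CPM in H9 with eIF2A shRNA, against 85.7 and 84.0 CPM.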

How the data were processed

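The authors deposited unnormalized counts, 1 whole number per RefSeq accession and library. The submitters' processing notes name cutadapt, STAR 2.5.2b and the hg19 build, and libraries were made with a stranded mRNA kit, per the labels' protocols. What program counted the reads, with which strand setting and with what treatment of other isoforms, is not stated there. Each library listed 19305 accessions and 5 special counters, which were kept out of library sizes; reads with no feature made up 14.95 to 20.84% and multiply aligned reads 4.106 to 4.542%. RefSeq tables named 18888 accessions and 225 more were named from GENCODE.

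Genes kept by filterByExpr (14565) were scaled with TMM and tested with edgeR 4.0.16 in R 4.3.3: 4 group means, 8 libraries, 4 residual degrees of freedom, a robust two-sided quasi-likelihood F test and Benjamini-Hochberg adjustment over all genes. Calls were made below an adjusted p of 0.05. SE is the log2 fold change over the root of F. Levels per length used the transcript length in GENCODE v29. The GC and length trend was fitted in each library with natural splines (5 degrees of freedom each) and entered as an offset. It was fitted to log2 CPM minus the gene's mean over the libraries. Like patterns used log2(CPM + 0.01). Alternatives were other scalings and filters, DESeq2 1.42.0, limma-voom (limma 3.58.1), single lines, the set number as a block and each library left out; for the balance, CPM without length and coding length. The procedure was tested on simulated data.

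Named were EIF2A, all 8 subunits, all genes of prefoldin, TRiC cofactors, chaperonin-like genes and mitochondrial chaperonin, up to 4 of each other list by p, neighbours within 1000 bases, and 5 genes of like pattern. The members and lists were chosen with earlier results of these data known. Cell type markers were checked as sums.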

Additional observations from a re-analysis of the deposited data

Results flagged for a closer look

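For 7 TRiC subunits, the effect of eIF2A knockdown differed between H9 and HEK293T in the test of the difference itself (H9 log2 fold change minus HEK293T log2 fold change, edgeR adjusted p under 0.05), as it did for 58.1% of all genes. The difference was 0.57 for CCT8, 0.34 for CCT2, 0.34 for CCT6A and 0.30 for TCP1, and it was -0.40 for CCT4, -0.35 for CCT7 and -0.27 for CCT3. The lines also differ in arsenite and in the kind of interfering RNA, which cannot be told apart. With the GC and length trend removed, CCT4, CCT7 and CCT3 kept a lower value in H9, TCP1 turned to a lower value (-0.17), and CCT2, CCT6A and CCT8 were not called; 42.4% of all genes were called in that fit.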

How the results depend on the processing

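The counts of subunits called in each comparison were within 1.5 times those reported under other scalings, filters, thresholds and tools, and the removal of the GC and length trend changed them most; the cause was not tested. With the trend removed, 3 subunits were called in HEK293T, 3 higher; in H9 1 was higher and 5 lower; between the controls 1 was higher; and in the difference of the knockdowns 0 were higher and 5 lower. DESeq2 called 2742 genes in HEK293T, where edgeR called 4182. Leaving out 1 library gave 0 to 1 subunits lower in HEK293T, the 1 being CCT7 without control replicate 1, 4 to 6 called there and 8 in H9.

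In H9 the direction turned with the trend removed for TCP1 (-0.09), CCT5 (-0.45), ARL2 (0.13), MKKS (-0.46), PDCL (-0.59), PFDN2 (0.06), PFDN4 (-0.40), PIH1D1 (0.04), TXNDC9 (-0.47) and VBP1 (-0.28), and CCT5 was -0.01 with DESeq2 and its size factors. In the difference of the knockdowns TCP1 (-0.17), CCT5 (-0.54) and CCT6A (-0.13) turned with the trend removed, and CCT5 (-0.16) with DESeq2's size factors. Between the controls CCT8 was 0.07 with the trend removed and CCT6A -0.15 with upper-quartile scaling.

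The SD of log2 levels over the subunits (1.62 and 1.68 in HEK293T with eIF2A siRNA and control, 1.05 and 1.39 in H9 with eIF2A shRNA and control) became 1.55, 1.61, 0.977 and 1.34 without division by length, 1.56, 1.62, 0.991 and 1.35 with coding length, and 1.59, 1.64, 1.23 and 1.28 with the trend removed. Leaving out 1 library gave 1.61 to 1.62, 1.68 to 1.68, 1.04 to 1.06 and 1.37 to 1.41.

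Same-numbered sets were not shown to pair: their deviations correlated at 0.0248 in HEK293T and 0.154 in H9. With the set number as a replicate block, 5 subunits were called in HEK293T and 8 in H9, as without it. With the replicate block and the trend removed together, 3 were called in HEK293T (3 higher), 5 in H9 (1 higher, 4 lower, since TCP1, at -0.09, was no longer called) and 5 in the difference (0 higher, 5 lower), 1 was higher between the controls, and CCT6A was -0.12 in the difference.

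Each subunit had at least 1435 counts in every library; how depth limits the calls was not tested.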
